A study of Mus musculus with 144 samples.

Results

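The genes described here are those of the mitochondrial carrier family that carry the symbol Slc25a, taken as every protein-coding mouse gene whose symbol starts with Slc25a, without pseudogenes. The rule found 47 members among the 55359 genes of the count files, of which 21877 are protein-coding genes with a symbol in the annotation used. Slc25a52 was not analysed here, and the relatives that carry other names (Ucp1, Ucp2, Ucp3, Mtch1 and Mtch2) are no members and were followed as a separate list.

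Mitochondrial carriers are small proteins of the inner mitochondrial membrane that exchange metabolites, nucleotides and cofactors between the cytosol and the matrix. In hepatocytes they serve the urea cycle (ornithine and aspartate carriers), the export of citrate for lipid synthesis, the malate-aspartate shuttle, the uptake of acylcarnitines for β-oxidation and the exchange of ADP for ATP. Some members sit elsewhere, such as Slc25a17 in peroxisomes and Slc25a46 in the outer mitochondrial membrane, and for several the substrate is uncertain or debated.

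The study asked how the dioxin TCDD, a potent ligand of the aryl hydrocarbon receptor (AHR), changes gene expression in primary mouse hepatocytes, and whether the response differs in cells that lack a dioxin response element (DRE) in the Pkm gene. Hepatocytes of male mice, 28 days old, were labelled wild type (WT, strain C57BL/6NCrl) or Pkm ΔDRE, a line in which CRISPR-Cas9 editing removed an intronic DRE from the whole animal and which was backcrossed and kept homozygous. TCDD was given at 10 nM, DMSO served as the vehicle, and cells were collected at 9 times from 2 to 120 h, giving 36 groups of 4 RNA-Seq libraries. These hours count from the start of treatment, which followed a period of attachment, and are called time in culture here. All cultures were kept in medium with ITS premix, ascorbic acid and dexamethasone, and the labels and the protocol text give different plate formats for them.

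Between 13588848 and 30719161 read pairs per library were counted on genes, with a median of 18011825. Cyp1a1, an AHR target, was at 1640 to 4050 CPM (counts relative to a library size corrected by TMM factors) with TCDD and at 1.08 to 4.42 CPM with vehicle at 8 h under the WT label. Pkm ran against the genotype labels, since TCDD averaged over the 9 times raised it by 0.61 ± 0.16 (SE) on the log2 scale under the Pkm ΔDRE label (adjusted p = 0.0156) and not under the WT label (-0.26 ± 0.17, adjusted p = 0.228, edgeR quasi-likelihood test with Benjamini-Hochberg adjustment), in counts of the whole gene that do not separate its isoforms. Groups are therefore named by the labels of their libraries, and the library numbers of the labels do not mix (72 with the WT label come before all of the other), so label and preparation cannot be told apart. In Pkm ΔDRE vehicle at 4 h, replicate 4 correlated with its own group at 0.815 and with WT vehicle at 96 h at 0.987. In Pkm ΔDRE vehicle at 96 h, replicate 4 correlated with its own group at 0.803 and with Pkm ΔDRE TCDD at 4 h at 0.988. Both libraries were kept under their labels, and several results that include them are given with and without them. The average of Pkm above is given only with them. In them Pkm was at 502 CPM (4 h, others 59.8 to 236) and at 91.9 CPM (96 h, others 319 to 764). In 5 libraries of the WT label Cyp1a1 lay apart from the rest of the group, toward the other treatment (vehicle at 48 and 96 h, TCDD at 2, 4 and 72 h). At 4 h that TCDD library was at 11.2 CPM, above the vehicle libraries (0.786 to 4.87 CPM) and below the other TCDD libraries (121.5 to 314.5 CPM). Further WT vehicle libraries stood above their groups, yet below the TCDD libraries of their times, and are not among the 5. Examples are 18.1 CPM at 12 h (others 0.928 to 1.06), 55.2 CPM at 24 h (others 0.696 to 2.13) and 256.6 CPM at 120 h (others 7.31 to 63.9). The labels give no isolation, animal or day, so p-values measure only the spread between libraries, which may be technical.

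The AHR binds DREs with the core letters GCGTG. RefSeq promoter windows (GRCm38.p6, 250 bases before to 50 after the transcription start) were used for 36 of the 47 members, while the count files follow GRCm39. Members for which no window was used include Slc25a2, Slc25a26, Slc25a27, Slc25a32, Slc25a35, Slc25a37, Slc25a41, Slc25a44, Slc25a46 and Slc25a51. Of these, Slc25a2 and Slc25a46 were left out by their position in the genome. Windows of all genes were not left out in this way, so the shares below compare sets that were chosen differently. Of 46 member windows, 25 (54.3%) held GCGTG or its reverse complement CACGC at least once, against 10639 of 32851 windows of all genes (32.4%), and by gene 21 of 36 members (58.3%) held it against 9500 of 27025 genes (35.2%). Windows of 3 members are shown. Slc25a1 and Slc25a39 were the members with the largest negative change with TCDD at 8 h under the WT label, and Slc25a47 was the member with the largest negative change over time in culture. They lie on the minus strand at chr16:17928170-17928469 (Slc25a1), on the minus strand at chr11:102407468-102407767 (Slc25a39) and on the plus strand at chr12:108850879-108851178 (Slc25a47), and run 5′ to 3′ with GCGTG and CACGC in capitals.
Slc25a1: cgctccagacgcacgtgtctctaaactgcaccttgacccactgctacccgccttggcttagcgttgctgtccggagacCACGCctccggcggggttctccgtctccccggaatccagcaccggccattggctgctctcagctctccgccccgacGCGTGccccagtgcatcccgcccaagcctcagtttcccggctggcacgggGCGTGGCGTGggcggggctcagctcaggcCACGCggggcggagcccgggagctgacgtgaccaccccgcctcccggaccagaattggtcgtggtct
Slc25a39: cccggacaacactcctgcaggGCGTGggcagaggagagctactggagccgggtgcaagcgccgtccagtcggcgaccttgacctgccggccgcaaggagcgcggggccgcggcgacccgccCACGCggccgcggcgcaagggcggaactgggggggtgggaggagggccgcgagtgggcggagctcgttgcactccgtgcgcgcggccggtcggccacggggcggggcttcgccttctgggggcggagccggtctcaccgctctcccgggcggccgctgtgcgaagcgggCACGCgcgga
Slc25a47: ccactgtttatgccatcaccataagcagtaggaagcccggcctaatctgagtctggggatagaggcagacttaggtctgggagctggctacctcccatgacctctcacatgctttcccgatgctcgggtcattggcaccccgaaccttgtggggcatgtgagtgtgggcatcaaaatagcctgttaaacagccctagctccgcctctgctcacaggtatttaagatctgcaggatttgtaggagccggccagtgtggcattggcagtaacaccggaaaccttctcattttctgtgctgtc
The windows held 5, 3 and 0 matches in that order. A match is a string of letters and no measured binding, and no match says only that the letters are not in that window.

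Levels between genes were compared as CPM per kilobase of exon. Over all vehicle libraries the highest mean levels were those of Slc25a5, an ADP/ATP translocase (273 CPM per kb), Slc25a39, a carrier needed for mitochondrial glutathione import (196), Slc25a1, the citrate carrier (120), Slc25a3, the phosphate carrier (101.3), and Slc25a47, a liver-enriched member whose substrate is debated (81.6). Slc25a47 owed its place to the early cultures. At 2 h under the WT label it ranked 2 of the 47 with 402 ± 61 CPM per kb (SD, n = 4), near Slc25a5 at 402 ± 54.8, and at 120 h it ranked 30 with 1.98 ± 2.07. Slc25a5 stayed at rank 1 in vehicle cultures at 2, 24 and 120 h under both labels.

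At the other end Slc25a2, Slc25a31, Slc25a41 and Slc25a54 together gave few counts. Slc25a31, Slc25a41 and Slc25a54 summed to 81, 25 and 23 counts over all libraries, and Slc25a2 was at 0 in 95 of them. These 4 members did not pass the filter on low counts in the fits across times, which tested 43 members. In the comparisons of TCDD and vehicle within a time 38 to 42 members were tested. The family as a whole took between 0.265% (WT, TCDD, 8 h) and 0.418% (Pkm ΔDRE, TCDD, 48 h) of all gene counts as group means.

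Time in culture moved most of the family. With vehicle, 34 of 43 tested members were called between 2 and 120 h under the WT label, 11 higher and 23 lower, and 34 under the Pkm ΔDRE label, 10 higher and 24 lower, where a call needs a 1.5-fold or larger difference at an adjusted p-value under 0.05. Of all genes 57.9% were called in the WT comparison (33.4% higher, 24.5% lower) and 49.4% in the other (26.8% higher, 22.7% lower). The median log2 fold change of the members was -0.66 under WT and -0.87 under Pkm ΔDRE, beside 0.21 and 0.24 for all genes tested. Of the 11 called higher under WT, Slc25a53 alone was not called under Pkm ΔDRE, and of the 23 called lower, Slc25a16 alone was not, while Slc25a17 and Slc25a26 were called lower only under Pkm ΔDRE (the difference between the labels over time was not tested). In bulk RNA, fewer cells of a type and less RNA per cell cannot be told apart.

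These calls depend on the scaling. The median TMM factor, the correction for composition, rose from 0.632 at 2 h to 1.424 at 120 h. With total gene counts in place of TMM the median of all genes moved to 1.43 (WT) and 1.57 (Pkm ΔDRE), and the split of called members turned to 19 higher and 12 lower of 43 under WT (72.8% of all genes called) and to 19 higher and 7 lower under Pkm ΔDRE (69.2%). Of all genes called with total counts, 10001 of 11547 (WT) and 9651 of 11053 (Pkm ΔDRE) were higher. With TMM, RLE and total counts alike, 11 members were called higher and 12 lower under WT, and 10 and 7 under Pkm ΔDRE. The share of all genes called under all 3 scalings was not computed, so these counts have no background beside them. Called lower under all 3 scalings and both labels were Slc25a47, Slc25a15, Slc25a25, Slc25a21, Slc25a22, Slc25a23 and Slc25a10. Under Pkm ΔDRE no other member was called lower under all 3, so the other falls to 120 h given below depend on the scaling there. The direction of 9 members under WT and 11 under Pkm ΔDRE differed between the scalings, among them Slc25a3, Slc25a11, Slc25a28 and Slc25a39 under both.

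**Figure D1:**
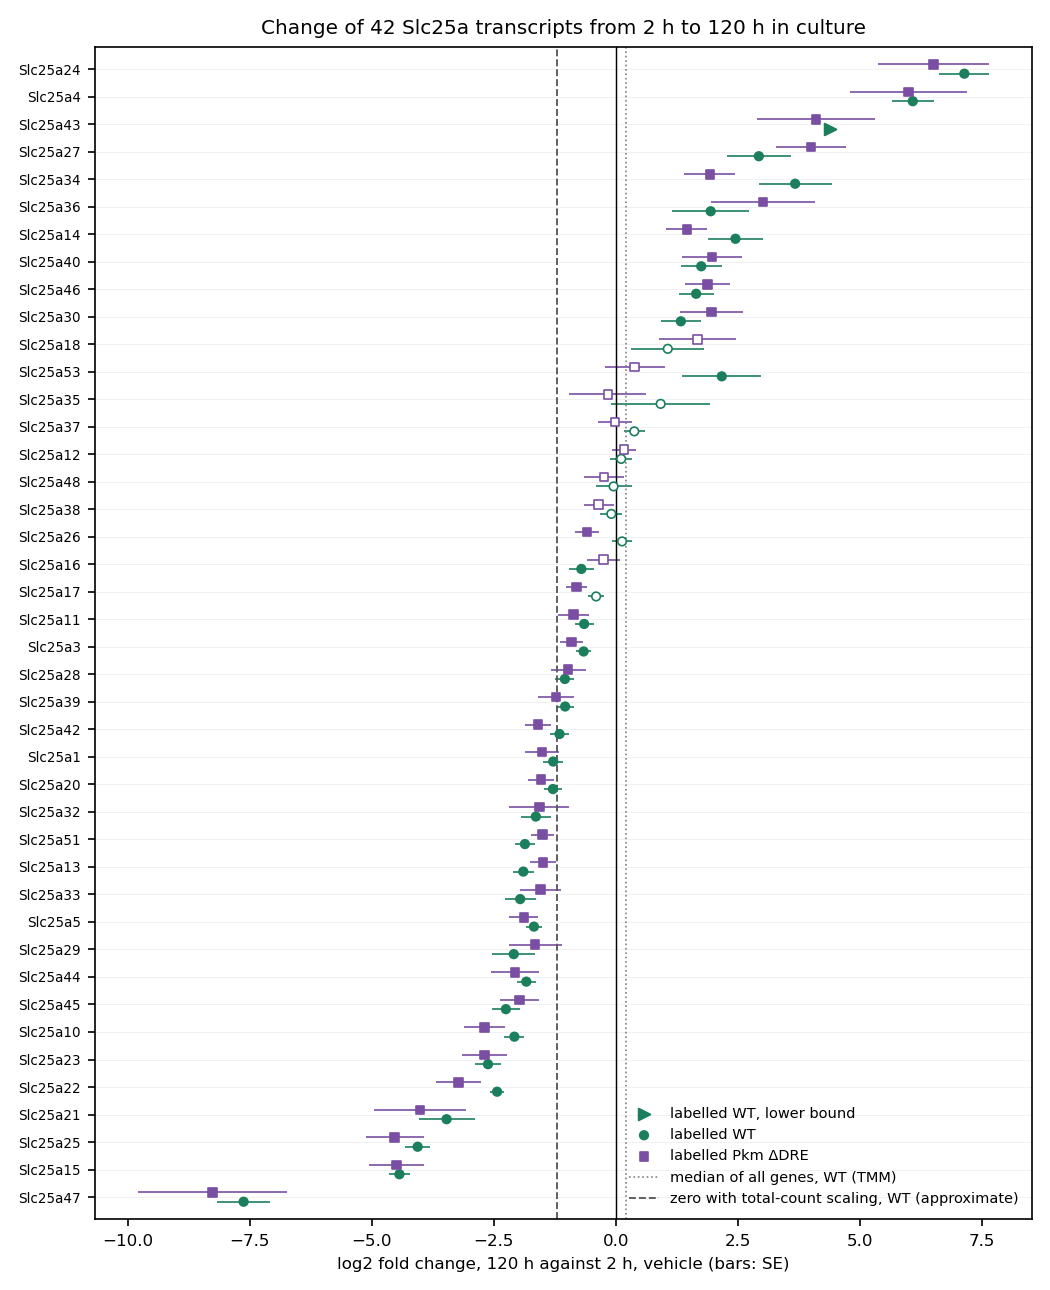
Log2 fold change of 42 Slc25a genes from 2 h to 120 h in vehicle cultures (x axis; bars are SE; 4 libraries per time) for the WT and Pkm ΔDRE labels, filled where called, with the median of all genes and the approximate position of zero under total-count scaling as lines. Values run from -8.27 for Slc25a47 to 7.15 for Slc25a24, and Slc25a43 under WT is drawn as a lower bound.

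Marker genes moved over the same interval. The summed level of 8 hepatocyte markers went from 131550-169870 CPM at 2 h to 3168-16392 CPM at 120 h under WT and from 154670-235650 to 7309-9672 CPM under Pkm ΔDRE, with 7 of 8 called lower under each label. Alb alone, the gene of serum albumin, was at 102000 to 139000 CPM at 2 h and 1820 to 12200 CPM at 120 h under WT. Of the Kupffer cell markers 5 of 6 fell under WT and 6 of 6 under Pkm ΔDRE, with sums of 167-287 and 155-368 CPM at 2 h and 12.4-41.2 and 24.6-72.9 CPM at 120 h, and of the endothelial markers 4 of 5 fell under each label. Of the 6 stellate cell and fibroblast markers 3 rose and 1 fell under each label (sums of 18.5-26.9 CPM at 2 h and 21.1-128.8 CPM at 120 h under WT), with Acta2 at 0 in 4 of 4 WT libraries at 2 h and at 8.21 to 49 CPM at 120 h. Of the 4 cholangiocyte markers 2 rose under each label and 1 fell under WT, and Krt19 went from 0.0922-0.814 to 28.9-63.9 CPM. The part of these markers in the changes of the carriers was not tested.

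Among the ADP/ATP and phosphate carriers 3 of 4 members were tested and 1 rose and 2 fell under each label. Slc25a4, the ADP/ATP translocase best known from heart and muscle, was nearly absent at 2 h. Under WT it was at 0.508, 4.17, 1.01 and 2.66 CPM at 2 h, at 48.1, 44.7, 36.8 and 43.2 CPM at 24 h, and at 123.8, 118.5, 161 and 147.3 CPM at 120 h. Every library of 24 h lay above every library of 2 h, and every library of 120 h above those of 24 h. The change from 2 to 120 h was 6.09 ± 0.43 on the log2 scale under WT (adjusted p = 1.12e-13) and 6.00 ± 1.20 under Pkm ΔDRE (adjusted p = 0.000178, edgeR quasi-likelihood test with Benjamini-Hochberg adjustment), where the libraries went from 1.38, 0.561, 2.47 and 3.97 to 125.6, 116.3, 135.2 and 162 CPM.

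Slc25a5, the translocase dominant in liver and dividing cells, went the other way. It was at 624, 797, 614 and 614 CPM at 2 h under WT and at 166, 256, 197 and 183 CPM at 120 h, a change of -1.68 ± 0.17 (adjusted p = 4.9e-10) with no overlap between the groups, which was -0.46 and not called with total counts. Slc25a4 thus made up 0.210% ± 0.147 (SD, n = 4) of the summed level per kilobase of both translocases at 2 h under WT, 5.45% ± 0.74 at 24 h and 32.8% ± 5.6 at 120 h. Under Pkm ΔDRE the shares were 0.195% ± 0.13, 2.57% ± 1.55 and 32.8% ± 3.9. A share within a library does not depend on the scaling of that library. Slc25a3, the phosphate carrier, changed by -0.66 ± 0.16 under WT and by 0.57 in the opposite direction with total counts.

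The ATP-Mg/phosphate carriers, calcium-regulated exchangers that set the adenine nucleotide content of the matrix, parted in the same manner. Slc25a24 stood at 1.52, 1.53, 0.922 and 0.771 CPM at 2 h under WT, at 111.1, 87.3, 124.6 and 74.1 CPM at 24 h and at 173, 133.9, 170 and 165 CPM at 120 h. Its rise of 7.15 ± 0.51 (adjusted p = 2.03e-13) was the largest positive value of the family among those with counts at both ends, and most of it (6.40 ± 0.50, adjusted p = 4.11e-12) lay between 2 and 24 h. Under Pkm ΔDRE it rose by 6.51 ± 1.13 (adjusted p = 3.7e-05), from 0.198, 3.37, 0.541 and 2.16 to 103.3, 154, 199 and 122.8 CPM.

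Slc25a25 fell over the same hours, from 464, 444, 734 and 426 CPM at 2 h to 46.4, 57.01, 53.6 and 71.3 CPM at 24 h and 23.5, 35.6, 37.02 and 23.3 CPM at 120 h under WT. The change to 120 h was -4.06 ± 0.26 (adjusted p = 7.77e-15) under WT and -4.54 ± 0.59 (adjusted p = 1.57e-06) under Pkm ΔDRE. About 4.82% of its exon length overlaps Naif1 on the opposite strand, and the unstranded counts cannot assign those reads. Slc25a23 went from 290, 333, 283 and 289 CPM to 44.04, 70.6, 24.5 and 48.4 CPM under WT (-2.62 ± 0.27, adjusted p = 9.01e-10) and by -2.69 ± 0.46 under Pkm ΔDRE (adjusted p = 3.14e-05). For both genes the groups did not overlap. The share of Slc25a24 among the 3 genes, per kilobase, went from 0.287% ± 0.108 (SD, n = 4) at 2 h to 62.5% ± 9.3 at 24 h and 78.6% ± 6.9 at 120 h under WT, and from 0.424% ± 0.512 to 50.2% ± 22.4 and 73.6% ± 11.7 under Pkm ΔDRE.

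**Figure D2:**
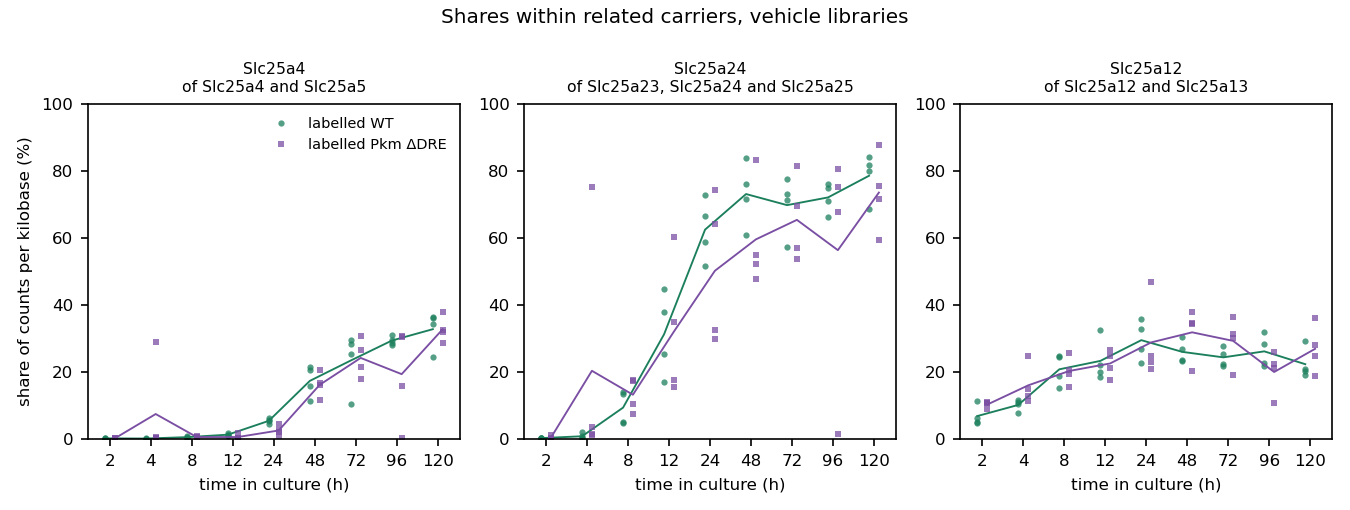
Share (%) of the summed level per kilobase taken by Slc25a4 within Slc25a4 and Slc25a5, by Slc25a24 within Slc25a23, Slc25a24 and Slc25a25, and by Slc25a12 within Slc25a12 and Slc25a13, over time in vehicle cultures; points are libraries and lines are means of 4. The first 2 shares start under 1.2% in all libraries of 2 h and end between 24.5% and 87.6%, and 1 vehicle library each at 4 h and 96 h of the Pkm ΔDRE label stand away from their groups.

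The 4 carriers of citrate, dicarboxylates and oxoacids all fell between 2 and 120 h under both labels with TMM scaling, while Slc25a11 turned its direction with total counts. Slc25a10, which exchanges malate or succinate for phosphate, went from 148.3, 159, 232 and 258 CPM to 42.2, 61.4, 34.3 and 43.7 CPM under WT (-2.08 ± 0.20, adjusted p = 1.89e-10). It changed by -2.69 ± 0.42 under Pkm ΔDRE (adjusted p = 1.18e-05). Slc25a21, the oxodicarboxylate carrier of lysine breakdown, was scarce throughout, at 1.22, 6.92, 4.98 and 3.86 CPM at 2 h and 0.473, 0.486, 0.274 and 0.232 CPM at 120 h under WT (-3.47 ± 0.57, adjusted p = 4.6e-06). Slc25a1, which exports citrate, changed by -1.28 ± 0.20 (adjusted p = 2.38e-06) to 120 h, made of -0.12 ± 0.20 between 2 and 24 h (adjusted p = 0.644) and -1.16 ± 0.20 thereafter (adjusted p = 2.87e-05). With total counts its change from 2 to 120 h was -0.07 and not called. Slc25a11, the oxoglutarate-malate carrier, changed by -0.65 ± 0.19 under WT and by 0.57 with total counts, and Rnf167 overlaps 8.92% of its exon length on the opposite strand.

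Of the aspartate/glutamate and glutamate carriers 2 of 4 fell under each label. Slc25a22, a glutamate carrier, was at 231, 254, 240 and 247 CPM at 2 h, at 93.5, 91.2, 91.04 and 114.6 CPM at 24 h and at 39.1, 43.7, 45.6 and 45.1 CPM at 120 h under WT, a descent with no overlap between times (-2.43 ± 0.15 to 120 h, adjusted p = 3.06e-15). Under Pkm ΔDRE it changed by -3.22 ± 0.47 (adjusted p = 4.8e-06). Slc25a13 (citrin), the aspartate/glutamate carrier of liver, changed by -1.90 ± 0.22 under WT (adjusted p = 7.38e-09) and by -1.49 ± 0.27 under Pkm ΔDRE. Slc25a12 (aralar), its counterpart in excitable tissues, was instead highest in the middle of the course. It went from 24.3, 15.1, 17.5 and 9.85 CPM at 2 h to 45.1, 52.9, 47.8 and 54.8 CPM at 24 h and back to 15.4, 22.1, 14.3 and 17.5 CPM at 120 h under WT. The rise was 1.59 ± 0.23 (adjusted p = 5.63e-07) and the later fall -1.48 ± 0.22 (adjusted p = 3.46e-06), and under Pkm ΔDRE they were 1.25 ± 0.25 and -1.07 ± 0.24. Slc25a12 held 6.87% ± 3.13 (SD, n = 4) of the summed level per kilobase of both genes at 2 h, 29.5% ± 5.9 at 24 h and 22.4% ± 4.6 at 120 h under WT.

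Of the 4 tested carriers of ornithine, basic amino acids, glycine and branched-chain amino acids 3 fell under each label. Slc25a15, the ornithine carrier of the urea cycle, was at 505, 656, 479 and 350 CPM at 2 h, at 68.5, 57.2, 54.8 and 48.8 CPM at 24 h and at 22.03, 22.01, 19.4 and 25.1 CPM at 120 h under WT. That was a change of -4.44 ± 0.22 (adjusted p = 3.56e-17), the smallest adjusted p of the family in this comparison. Under Pkm ΔDRE it went from 527, 359, 692 and 534 CPM to 22.5, 24.9, 21.4 and 25.2 CPM (-4.49 ± 0.57, adjusted p = 1.11e-06). The urea cycle enzymes Otc (-7.43 ± 0.45), Arg1 (-6.58 ± 0.87) and Ass1 (-6.18 ± 0.36) also fell under WT.

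Slc25a29, a carrier of basic amino acids, was lowest at 24 h among the 3 times tested. It was at 6.71, 7.84, 10.7 and 5.48 CPM at 2 h, at 0.544, 0.0928, 0.473 and 0.530 CPM at 24 h and at 1.64, 1.70, 1.41 and 2.15 CPM at 120 h under WT. The first step was -4.20 ± 0.50 (adjusted p = 1.86e-08) and the second 2.10 ± 0.47 (adjusted p = 0.000562), and under Pkm ΔDRE they were -3.96 ± 0.61 and 2.31 ± 0.58, with no overlap under WT in either step. Slc25a44, a carrier of branched-chain amino acids, went from 184, 246, 202 and 238 CPM to 45.8, 73.2, 54.5 and 62.1 CPM under WT (-1.83 ± 0.20, adjusted p = 1.41e-09) and by -2.07 ± 0.50 under Pkm ΔDRE (adjusted p = 0.00114). Slc25a38, the glycine carrier of heme synthesis, was not called between 2 and 120 h (-0.09 ± 0.23, adjusted p = 0.745 under WT). Slc25a20, which brings acylcarnitines to β-oxidation, fell from 96.7, 102.4, 100.8 and 104.97 CPM to 30.7, 51.9, 39.01 and 38.3 CPM under WT (-1.29 ± 0.18, adjusted p = 2.56e-07), a change of -0.08 that was not called with total counts.

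Of the 11 cofactor, nucleotide and glutathione carriers 2 rose and 6 fell under WT, and 2 rose and 7 fell under Pkm ΔDRE. The rises were in Slc25a36, a pyrimidine nucleotide carrier, and Slc25a40, the close relative of Slc25a39. Slc25a36 was at 0.407, 0, 1.01 and 2.06 CPM at 2 h and at 3.97, 1.34, 3.12 and 4.56 CPM at 120 h under WT, groups that overlap (1.95 ± 0.79, adjusted p = 0.0316), and changed by 3.02 ± 1.07 under Pkm ΔDRE (adjusted p = 0.0202). Slc25a40 went from 2.03, 1.02, 3.04 and 1.63 CPM to 6.05, 5.79, 6.66 and 6.53 CPM under WT (1.75 ± 0.42, adjusted p = 0.000584). Slc25a39 changed by -1.04 ± 0.19 under WT (adjusted p = 1.47e-05) and by 0.18 with total counts. Slc25a39 kept between 98.97% and 99.99% of the summed level per kilobase of itself and Slc25a40 in the vehicle libraries of 2, 24 and 120 h. Others that fell under WT were Slc25a51, the NAD carrier (-1.86 ± 0.20), Slc25a33, a pyrimidine nucleotide carrier (-1.96 ± 0.32), Slc25a32, linked to folate and FAD (-1.64 ± 0.31), and Slc25a42, the coenzyme A carrier (-1.15 ± 0.20, but 0.04 with total counts). None of these was called lower under all scalings and both labels.

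The 3 carriers that resemble uncoupling proteins rose under both labels, whichever scaling was used. Slc25a27 was at 2.54, 0.102, 0.922 and 0.857 CPM at 2 h, at 0.544, 0.974, 1.27 and 0.0589 CPM at 24 h and at 8.73, 5.46, 7.07 and 11.1 CPM at 120 h under WT, so its rise (2.93 ± 0.65, adjusted p = 0.000262) lay after 24 h. Slc25a14 went from 0, 0.102, 0.276 and 2.31 CPM at 2 h to 3.74, 5.52, 4.76 and 6.71 CPM at 24 h (2.88 ± 0.56, adjusted p = 7.04e-05) and was at 2.74, 5.02, 3.29 and 3.80 CPM at 120 h. Slc25a30, the most abundant of the 3, went from 199, 82.7, 153 and 71.6 CPM to 320, 241, 279 and 382 CPM (1.33 ± 0.42, adjusted p = 0.00615). Slc25a46, the outer membrane member tied to mitochondrial fission and fusion, went from 7.93, 8.85, 17.05 and 5.06 CPM to 31.7, 23.8, 28.7 and 32.4 CPM (1.65 ± 0.36, adjusted p = 0.000187). Of the iron carriers, Slc25a28 (mitoferrin 2) changed by -1.04 ± 0.19 under WT and by 0.18 with total counts, and Slc25a37 (mitoferrin 1) was not called (0.38 ± 0.22, adjusted p = 0.126).

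Of the 7 tested members with an uncertain or debated substrate 3 rose and 2 fell under WT, and 2 rose and 2 fell under Pkm ΔDRE. Slc25a47 had the steepest descent of the family. Under WT it was at 1004, 1120, 1430 and 1244 CPM at 2 h, at 30.5, 12.5, 24.3 and 20.8 CPM at 24 h and at 3.25, 15.1, 1.78 and 3.54 CPM at 120 h. The 24 h libraries lay below every 2 h library, and replicate 2 (15.1 CPM) brought the 120 h group within the range of 24 h. The change to 120 h was -7.63 ± 0.55 (adjusted p = 1.71e-13) under WT and -8.27 ± 1.53 (adjusted p = 7.51e-05) under Pkm ΔDRE, where it went from 1333, 724, 1609 and 985 to 6.72, 3.38, 2.61 and 2.41 CPM.

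Slc25a43 was not counted once in the 4 WT libraries of 2 h and was at 1.01, 1.62, 1.75 and 1.60 CPM at 120 h. Against the limit that 3 counts over the group allow (0.0711 CPM) it was at least 12.6-fold higher at 24 h and at least 21-fold higher at 120 h. Under Pkm ΔDRE it went from 0, 0, 0.155 and 0.0902 CPM to 1.51, 1.27, 0.567 and 1.43 CPM (4.10 ± 1.21, adjusted p = 0.00631). Slc25a34 went from 0, 1.42, 0.276 and 0 CPM to 3.59, 6.68, 6.62 and 4.01 CPM under WT (3.68 ± 0.75, adjusted p = 8.97e-05) and changed by 1.93 ± 0.52 under Pkm ΔDRE. Slc25a45 fell from 27.3, 25.04, 25.2 and 13.5 CPM to 4.51, 4.98, 4.80 and 4.12 CPM under WT (-2.25 ± 0.29, adjusted p = 8.21e-08) and by -1.98 ± 0.40 under Pkm ΔDRE (adjusted p = 0.000183). Slc25a48, linked to choline transport, peaked at 24 h, from 10.5, 6.00, 12.9 and 10.97 CPM to 63.5, 55.99, 59.6 and 71.4 CPM and back to 10.4, 4.49, 8.68 and 13.7 CPM under WT. Its rise of 2.64 ± 0.39 (adjusted p = 1.01e-06) and fall of -2.68 ± 0.38 (adjusted p = 1.54e-06) had counterparts of 2.29 ± 0.43 and -2.52 ± 0.43 under Pkm ΔDRE.

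**Figure D3:**
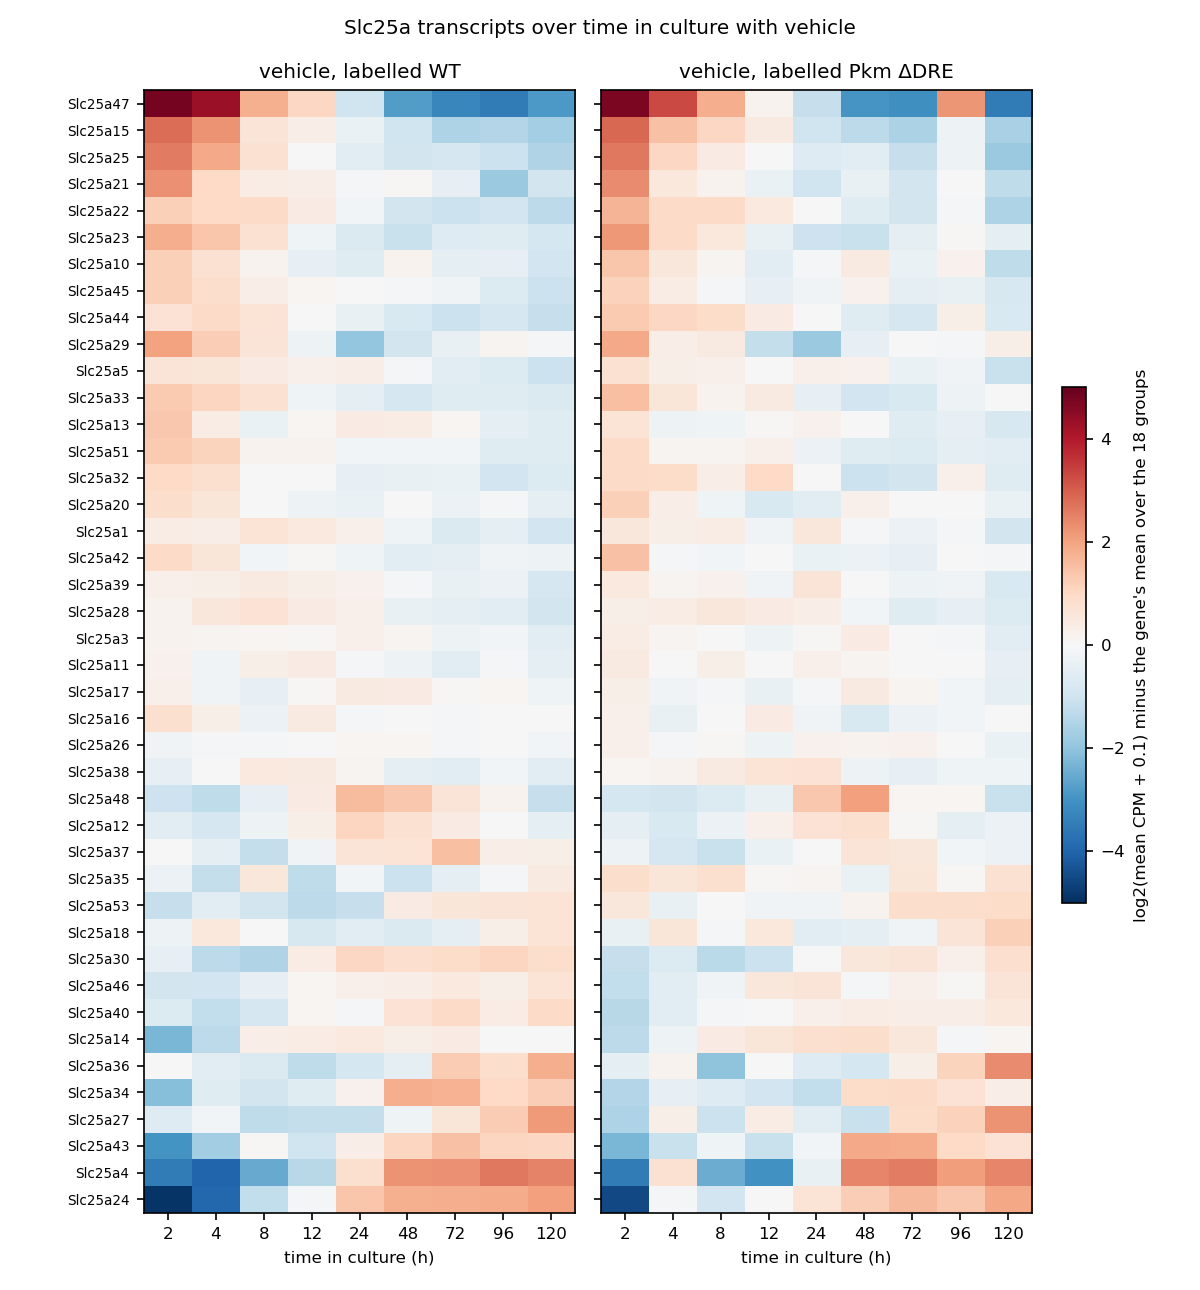
Mean level of 42 Slc25a genes in vehicle cultures by time (columns, h) and label, as log2 of mean CPM plus 0.1 minus the gene's mean over the 18 groups; red is above and blue below that mean, and genes are ordered by their change from 2 to 120 h. Slc25a47 at the top goes from red to blue, Slc25a4 and Slc25a24 near the foot go from blue to red, and Slc25a48 and Slc25a12 are highest at 24 or 48 h under both labels.

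The course was also split at 24 h. Between 2 and 24 h 11 members rose and 17 fell under WT (45.8% of all genes called, 25.8% higher and 20% lower) and 9 rose and 14 fell under Pkm ΔDRE (33.2%, 18% higher and 15.2% lower). Between 24 and 120 h 6 rose and 17 fell under WT (35.6%, 17% higher and 18.6% lower), and 5 rose and 12 fell under Pkm ΔDRE (23.4%, 9.38% higher and 14% lower). With total counts the median of all genes was 0.95 and 1.12 for the first step and 0.55 and 0.45 for the second, and the splits were 19 higher and 9 lower and then 8 higher and 8 lower under WT, where 60.1% and then 39% of all genes were called. Under Pkm ΔDRE they were 19 and 10 and then 7 and 5, beside 53.4% and 20.4% of all genes.

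The 2 vehicle libraries of 4 h and 96 h that stand apart are in none of the groups compared here and enter only the scaling and the estimate of the spread. Without them 34 members were again called between 2 and 120 h under Pkm ΔDRE, all 34 shared with the full fit, and 24 rather than 23 between 2 and 24 h and 18 rather than 17 between 24 and 120 h. Of all genes 50.5%, 36.2% and 28.4% were called in these comparisons without them. The calls under Pkm ΔDRE rested more on other libraries. With the same replicate of every group left out, 23 to 33 members were called between 2 and 120 h and 16 to 25 between 2 and 24 h. The second step had 6, 11 and 8 calls when replicate 1, 2 or 3 was left out. The shares of all genes in these fits are not given here.

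Genes that work beside the carriers were followed as lists. All 3 tested relatives of other names fell between 2 and 120 h under both labels (Ucp2 by 1.26, Mtch2 by 0.83 and Mtch1 by 0.71 on the log2 scale under WT). Of 14 enzymes of the carrier shuttles, the urea cycle among them, 10 fell and 1 rose under WT, and 10 fell under Pkm ΔDRE. Examples are Got1 (-3.65 ± 0.23) and Mdh1 (-3.01 ± 0.17), the cytosolic enzymes of the malate-aspartate shuttle. Of 12 other mitochondrial membrane transporters 2 rose and 5 fell under WT, and 1 rose and 6 fell under Pkm ΔDRE, with Sfxn3 at 5.98 ± 0.41 and the pyruvate carrier subunit Mpc2 at -2.37 ± 0.16 under WT. Of 13 genes of carrier protein import 5 and 6 fell and none rose, with Timm10 at -1.82 ± 0.20 and Timm8a1 at -1.77 ± 0.21 under WT. Of 7 regulators of mitochondrial genes 3 rose and 3 fell under WT, and 1 rose and 3 fell under Pkm ΔDRE, with Ppargc1a at 1.97 ± 0.60 and Ppara at -1.90 ± 0.32 under WT. All of these values come from the TMM-scaled fit. There 33.4% of all genes were called higher and 24.5% lower under WT, and 26.8% and 22.7% under Pkm ΔDRE. With total counts the median of all genes moved from 0.21 to 1.43 under WT. The values of these lists under that scaling are not given here, so small falls may depend on the scaling. Of 6 AHR target genes 4 were tested, of which 1 rose and 2 fell over time under each label.

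TCDD was compared with vehicle at each time under each label. At 8 h under the WT label 12 of 39 tested members were called, 6 higher and 6 lower, where 37.4% of all genes were called (23.8% higher, 13.6% lower), so the members' share was not above the background. The median log2 fold change was -0.24 for the members and 0.00 for all genes. With total counts the median of all genes moved to 0.16 and 9 members were called, 7 of them higher and 7 shared with the 12, where 30.6% of all genes were called (3033 of 3794 higher). Without the fold change threshold 19 members passed, 8 higher and 11 lower.

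**Figure D4:**
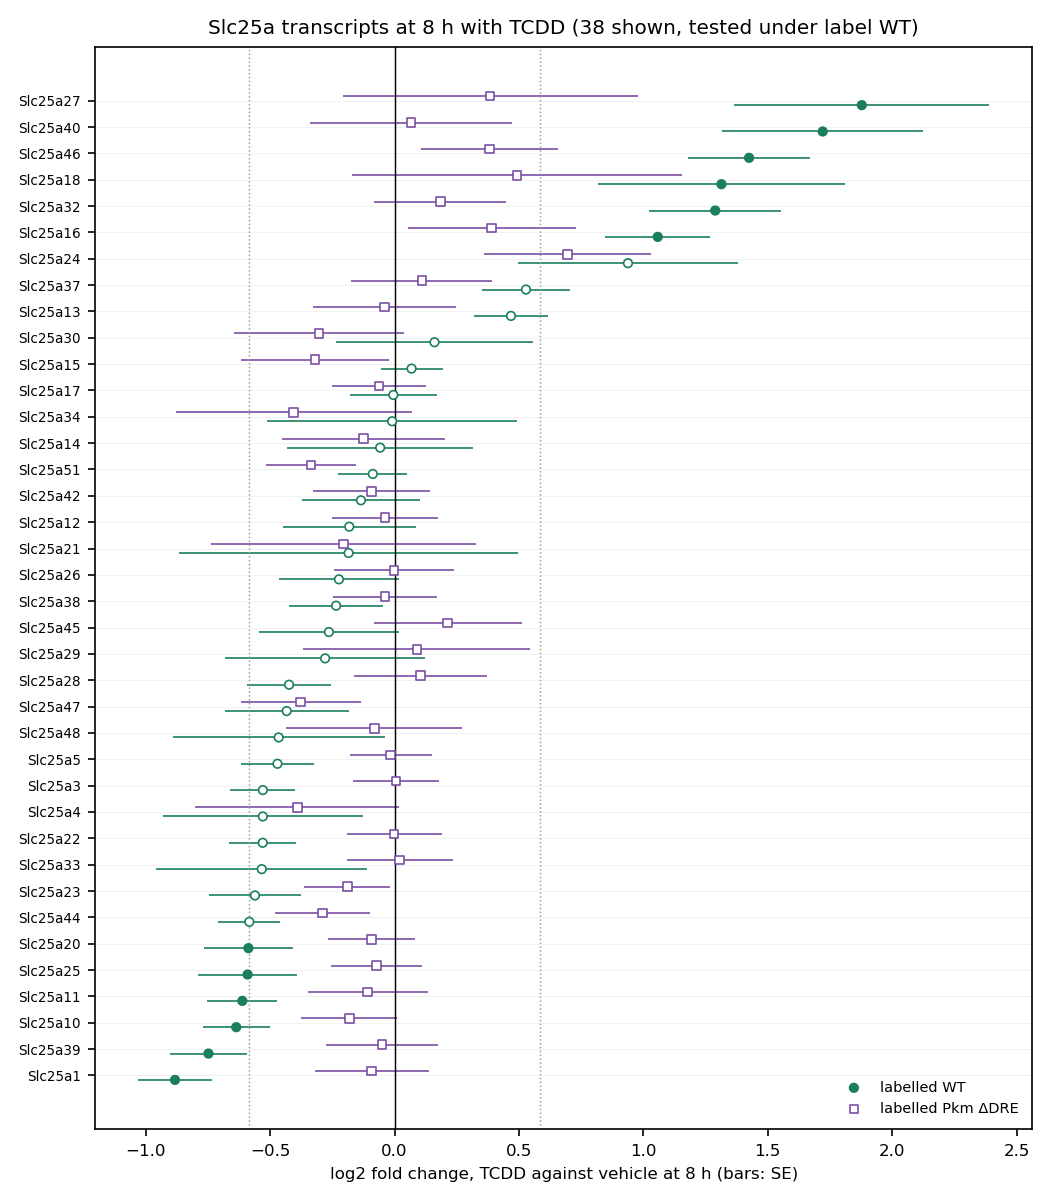
Log2 fold change of TCDD against vehicle at 8 h for 38 Slc25a genes tested under the WT label (circles) and the same genes under the Pkm ΔDRE label (squares); bars are SE, 4 libraries per group, filled symbols are called and dotted lines mark the 1.5-fold threshold. The WT values run from -0.88 for Slc25a1 to 1.88 for Slc25a27, and no square is filled.

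With vehicle, the members that fell were all at higher CPM than those that rose. Slc25a1 was at 432, 404, 380 and 364 CPM with vehicle and at 220, 198, 144.1 and 225 CPM with TCDD, with no overlap (-0.88 ± 0.15, adjusted p = 0.00141). Slc25a39 was at 807, 775, 650 and 653 CPM with vehicle and at 456, 418, 289 and 414 CPM with TCDD, again with no overlap (-0.75 ± 0.16, adjusted p = 0.00281). Slc25a10 went from 105.3, 103.6, 87.1 and 99.6 CPM to 53.3, 60.3, 55.3 and 63.97 CPM (-0.64 ± 0.13, adjusted p = 0.00308). With Slc25a11, at 84.2, 92.5, 83.3 and 82.1 CPM with vehicle and 58.4, 53.2, 41.8 and 51.99 CPM with TCDD (-0.61 ± 0.14, adjusted p = 0.00444), 3 of the 4 citrate, dicarboxylate and oxoacid carriers fell. Slc25a20 went from 55.4, 45.1, 58.5 and 61.5 CPM to 36.01, 30.7, 25.5 and 42.5 CPM (-0.59 ± 0.18, adjusted p = 0.0177). Slc25a25 was at 184, 177, 111.4 and 106.6 CPM with vehicle and at 107.6, 91.99, 78.4 and 74.9 CPM with TCDD, groups that overlap (-0.59 ± 0.20, adjusted p = 0.0284). Of these 6, Slc25a1 and Slc25a39 alone were called with total counts.

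The members that rose were of lower level. Slc25a46 was at 11.7, 11.5, 14.2 and 16.9 CPM with vehicle and at 21.3, 32.2, 46.3 and 33.2 CPM with TCDD (1.43 ± 0.25, adjusted p = 0.00155). Slc25a16, linked to coenzyme A transport, went from 14.6, 17.03, 18.5 and 18.1 CPM to 22.7, 30.2, 41.8 and 35.02 CPM (1.06 ± 0.21, adjusted p = 0.00233). Slc25a32 went from 8.04, 13.04, 8.96 and 11.3 CPM to 14.8, 24.2, 31.9 and 21.1 CPM (1.29 ± 0.27, adjusted p = 0.00271). None of these 3 overlapped between treatments. Slc25a40 was at 2.09, 2.12, 1.47 and 1.32 CPM and at 3.88, 4.12, 9.35 and 3.63 CPM (1.72 ± 0.40, adjusted p = 0.00493), and Slc25a27 at 0.541, 0.978, 0.567 and 0.659 CPM and at 1.99, 3.56, 2.55 and 1.14 CPM (1.88 ± 0.51, adjusted p = 0.0107). Slc25a18, a glutamate carrier of low level here, was at 1.01, 0.407, 1.19 and 1.91 CPM with vehicle and at 3.22, 3.31, 2.15 and 1.79 CPM with TCDD, groups that overlap (1.31 ± 0.50, adjusted p = 0.0460).

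The TCDD libraries of this comparison differed from the vehicle libraries in other measures. Pairs that mapped to no gene made up 8.36% to 22.0% of uniquely mapped pairs with TCDD and 4.89% to 6.00% with vehicle, and 18337 to 20626 genes were detected against 15401 to 17203. The 8 hepatocyte markers summed to 64336-69743 CPM with TCDD and to 79184-96774 CPM with vehicle, and 2 of them were called higher and 2 lower. Of the Kupffer cell markers 3 of 6 were called lower (sums of 62.4-117.02 CPM against 160-213 CPM), and Reln, 1 of 2 stellate cell markers tested, was called higher (41.2-83.6 against 10.7-14.7 CPM). Lrat, a defining stellate cell gene, was at 0 in 3 of 4 libraries of each group. The part of these differences in the calls was not tested. With a covariate for that share of pairs 18 of 39 members were called, 10 of the 12 among them, where 40.4% of all genes were called, and with 1 fit of all WT libraries and a surrogate variable no member was called (11 of 16838 genes).

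Under the Pkm ΔDRE label no member was called at 8 h, where 0.106% of all genes were called. The 12 members called under WT had log2 fold changes between -0.18 and 0.49 there, all at an adjusted p of 0.9999. The difference between the labels was called for none of the 12, with adjusted p between 0.292 and 0.553 (edgeR quasi-likelihood interaction test). Slc25a32 (-1.23 ± 0.38), Slc25a40 (-1.78 ± 0.57) and Slc25a46 (-1.16 ± 0.38) shared the smallest adjusted p of the 12 in that test.

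At 24 h under WT Slc25a47 was the 1 member called of 41, where 0.373% of all genes were called. It was at 30.5, 12.5, 24.3 and 20.8 CPM with vehicle and at 6.15, 5.28, 7.49 and 6.60 CPM with TCDD, with no overlap (-1.70 ± 0.27, adjusted p = 0.0251). Cyp1a1 was at 55.2 CPM in replicate 4 of this vehicle group and at 0.696 to 2.13 CPM in the others. The call was lost when replicate 1 or 3 of the vehicle group or replicate 1, 2 or 4 of the TCDD group was left out, and with the percentage of pairs off genes as a covariate. Under Pkm ΔDRE the log2 fold change of Slc25a47 at 96 h was -5.68 with and 0.04 without replicate 4 of the vehicle group, and not called in either fit.

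**Figure D5:**
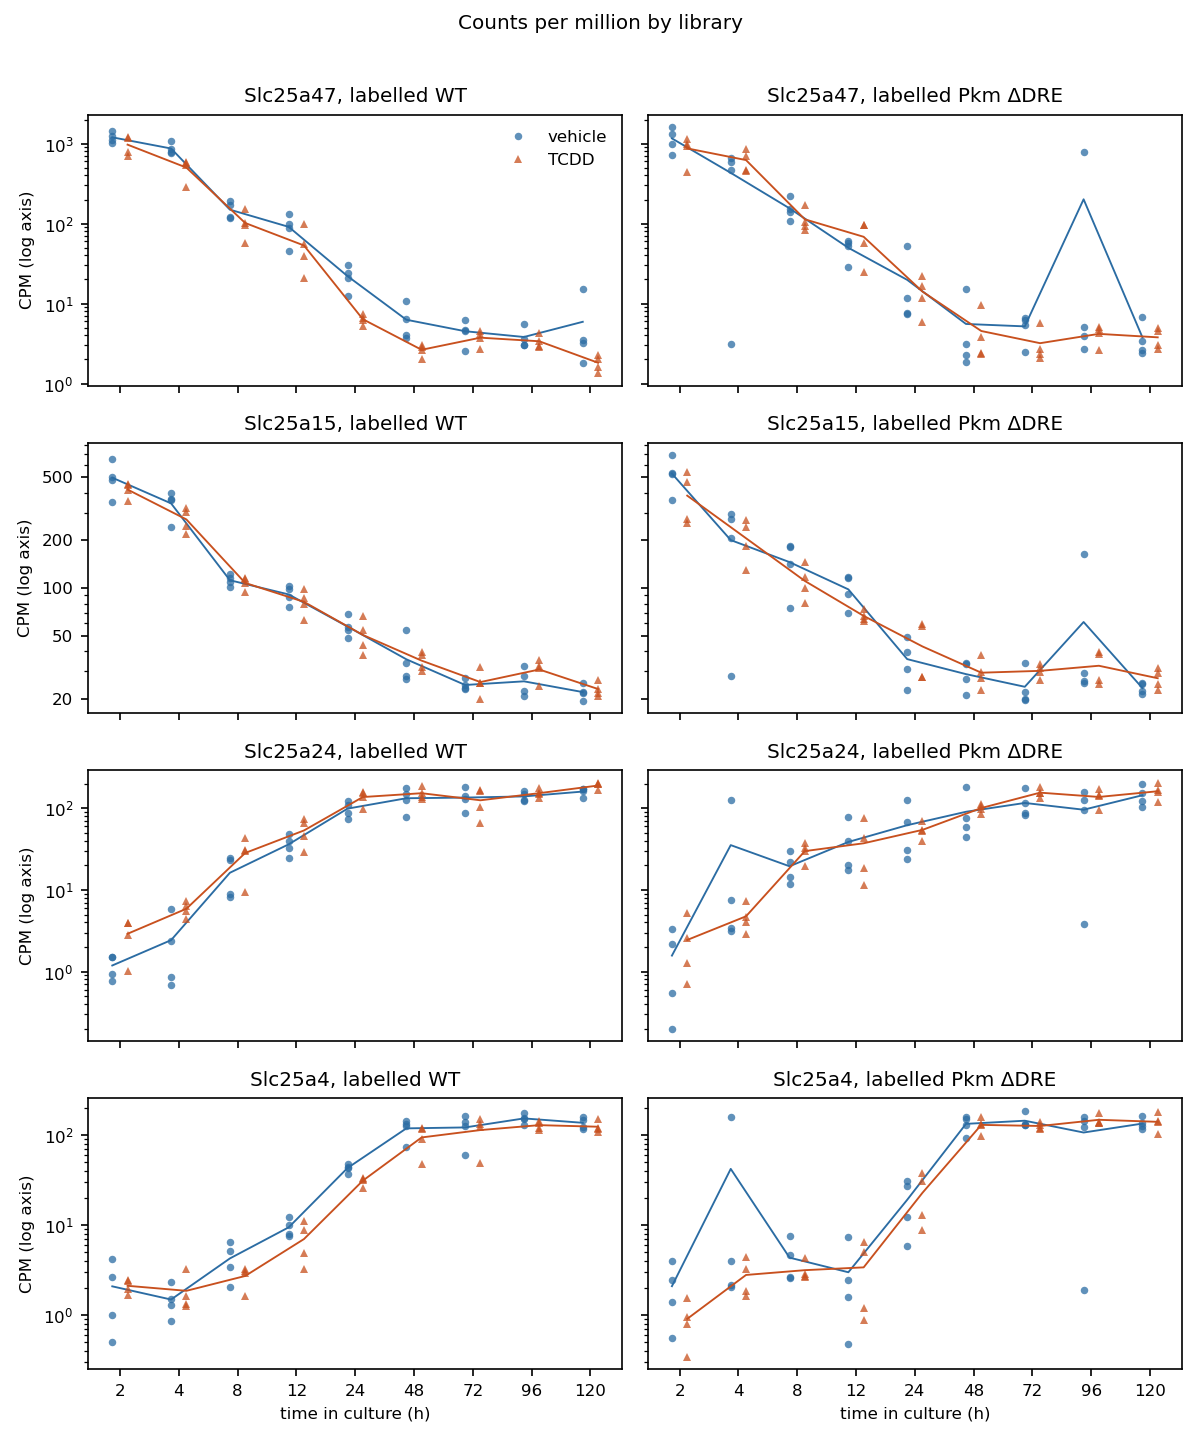
CPM by library (log axis) of Slc25a47, Slc25a15, Slc25a24 and Slc25a4 over time in culture (h) for the WT label (left) and the Pkm ΔDRE label (right); circles are vehicle, triangles are TCDD and lines are group means. Both Slc25a47 and Slc25a15 go down and Slc25a24 and Slc25a4 go up with time, and 2 Pkm ΔDRE vehicle libraries (3.15 CPM of Slc25a47 at 4 h and 794 CPM at 96 h) stand away from their groups.

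At 96 h under WT 3 of 41 tested members were called, where 15.1% of all genes were called (10.1% higher, 5.0% lower). Slc25a33 was at 15.4, 14.9, 20.5 and 23.9 CPM with vehicle and at 7.90, 12.9, 13.8 and 9.84 CPM with TCDD (-0.65 ± 0.19, adjusted p = 0.0242), and Gm13068 overlaps 14.9% of its exon length on the opposite strand. Slc25a46 was at 25.5, 23.5, 20.2 and 19 CPM and at 42.6, 36.9, 25.7 and 29.3 CPM (0.70 ± 0.17, adjusted p = 0.00901), and 7.06% of its exon length is overlapped in antisense. Slc25a36 was at 1.83, 2.22, 1.44 and 1.20 CPM and at 4.79, 3.88, 1.68 and 2.48 CPM, groups that overlap (1.04 ± 0.35, adjusted p = 0.0390). Replicate 1 of the TCDD group had a strand balance unlike all others (63.3% of stranded counts on strand 1), and pairs on no gene made up 9.08% to 11.8% against 6.21% to 9.41%, whose part was not tested. In the vehicle group Cyp1a1 was at 1641 CPM in replicate 3 and at 17.3 to 108.9 CPM in the others. Of the 4 cholangiocyte markers 2 were called lower (sums of 121.65-140.39 CPM with TCDD against 247.33-287.06 CPM with vehicle), and Krt19 was at 29-60.1 against 97.6-147 CPM. Reln, 1 of 6 stellate cell and fibroblast markers and the 1 called higher, was at 35.8-98.3 against 1.7-12.2 CPM. The sums of the 8 hepatocyte markers overlapped (12807-14794 against 7232-13550 CPM), and the part of these markers was not tested. Without the TCDD replicate of unlike strand balance no member was called, without replicate 4 of the vehicle group 1 was, and none of the 3 was called with that share as a covariate or in 1 fit of all WT libraries.

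At the remaining times under WT no member was called (2, 4, 12, 48, 72 and 120 h). The comparisons of 2, 4, 48 and 72 h each hold 1 library in which Cyp1a1 lay toward the other treatment. With any single library left out, no member was called at 2, 4, 12, 48 or 72 h either. At 120 h 1 member was called without replicate 3 of the TCDD group. The percentages of all genes called were 0.0321 (12 h), 0.00763 (48 h), 1.46 (120 h) and 0.0 (2, 4 and 72 h), and the members had 1, 9, 0, 1, 0 and 9 genes at an unadjusted p under 0.05 in edgeR. DESeq2 called 2 of 47 at 120 h, Slc25a47 and Slc25a48, and 4.3% of all genes. Under Pkm ΔDRE no member was called at any time. The percentages of all genes called were 0.0 (2 and 4 h), 0.024 (12 h), 0.016 (24 h), 0.404 (48 h), 1.13 (72 h), 0.0793 (96 h) and 0.633 (120 h). The members under this label had 2, 2, 0, 3, 0, 0, 1, 3 and 2 genes at an unadjusted p under 0.05 from 2 to 120 h, while DESeq2 called 2 of 45 at 2 h, Slc25a27 and Slc25a46, and 5.79% of all genes. The difference between the labels was called for no member at any time, with 1, 7, 5, 0, 0, 0, 2, 3 and 2 members at an unadjusted p under 0.05 in edgeR with 0.00715% of all genes called at 48 h, 0.00695% at 72 h and 0.0% at the other times. The share of all genes at an unadjusted p under 0.05 was not computed, so those counts of members have no background to be read against.

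Averaged over the 9 times, 15 of 43 members passed the adjusted p threshold under WT, 6 higher and 9 lower, where 37.7% of all genes passed (19.6% higher, 18.1% lower). Most differences were small, and 3 reached 1.5-fold, 2 higher and 1 lower (9.17% of all genes, 7.79% higher and 1.38% lower). Slc25a47 was lower by 0.84 ± 0.13 (adjusted p = 4.25e-06), Slc25a46 higher by 0.62 ± 0.12 (adjusted p = 0.00013) and Slc25a36 higher by 0.62 ± 0.24 (adjusted p = 0.0334). A further fit left out the 5 libraries in which Cyp1a1 lay toward the other treatment and the library of unlike strand balance. The value of Slc25a47 was then -0.83 (adjusted p = 1.1e-05, edgeR). In that fit 19 members passed the adjusted p threshold, 14 of the 15 among them, where 7218 of 17235 genes passed. Also higher were Slc25a24 (0.55 ± 0.13), Slc25a32 (0.40 ± 0.11), Slc25a16 (0.39 ± 0.09) and Slc25a40 (0.38 ± 0.14). Also lower were Slc25a33 (-0.32 ± 0.10), Slc25a25 (-0.28 ± 0.08), Slc25a11 (-0.26 ± 0.06), Slc25a44 (-0.24 ± 0.07), Slc25a3 (-0.21 ± 0.05), Slc25a51 (-0.20 ± 0.07), Slc25a10 (-0.20 ± 0.07) and Slc25a5 (-0.16 ± 0.06). Without replicate 1 of every group 9 members passed, a fit for which the share of all genes is not given here. With the percentage of pairs off genes as a covariate 7 of 43 passed, where 2876 of 16838 genes passed.

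Under Pkm ΔDRE the same average passed for 1 member, Slc25a51, the NAD carrier (-0.24 ± 0.07, adjusted p = 0.0291), where 3.74% of all genes passed (1.57% higher, 2.18% lower). Without the libraries of 4 h and 96 h that stand apart Slc25a51 was again the 1 member that passed, where 767 of 17420 genes passed. Slc25a47 was at -0.77 ± 0.30 (adjusted p = 0.153), and at -0.19 (adjusted p = 0.728) without the libraries of 4 h and 96 h that stand apart. Slc25a46 was at 0.26 ± 0.13 (adjusted p = 0.359). Of the AHR target genes 6 of 6 (WT) and 5 of 6 (Pkm ΔDRE) rose in the same fits.

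Between the labels, vehicle cultures averaged over the 9 times differed for no member by both criteria, where 1.20% of all genes were called, and 10 members had an unadjusted p under 0.05 in edgeR. The share of all genes at that unadjusted threshold was not computed. Slc25a37 (-0.37 ± 0.10, Pkm ΔDRE against WT, adjusted p = 0.0256) and Slc25a13 (-0.28 ± 0.08, adjusted p = 0.0427) passed the adjusted p threshold without reaching 1.5-fold. Slc25a35, of low level, was at 1.03 ± 0.31 (adjusted p = 0.0556) and was called without the same 2 libraries. Rangrf overlaps 31.3% of its exon length on the opposite strand.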

How the data were processed

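RNA-Seq of primary mouse hepatocytes was deposited as 144 files of read pair counts per gene, 1 per library, which the authors made with STAR (2.7, after FastQC 0.11.3 and Trimmomatic 0.39 per the labels) on GRCm39, and the unstranded raw counts of uniquely mapped pairs were used. Pairs mapping to no gene, several loci or several genes took 16.77% to 48.01% of pairs and were left out of library sizes. Symbols came from an annotation of GRCm38 matched by gene ID, which gave 52083 of 55359 IDs a symbol.

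Counts were tested with edgeR (4.0.16; quasi-likelihood test, TMM, filterByExpr with a count minimum of 10 and a total of 15, Benjamini-Hochberg adjustment over all genes tested; R 4.3.3). Calls needed an adjusted p-value under 0.05 and, except where stated, a fold change of at least 1.5, as in the study. Fits used 8 libraries (TCDD against vehicle, 18 comparisons), 16 (label by treatment, 9 comparisons), 72 (averages over times, and labels) or 36 (time in vehicle). CPM used TMM-scaled library sizes, and exon lengths for CPM per kilobase came from GRCm38. Intervals between libraries are SD or, for log2 fold changes, SE. The SE was derived from the test, as the absolute log2 fold change divided by the square root of the F statistic.

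The members, gene lists and tests were chosen with earlier results of these data known. The counts of members include 1 gene that is not reported by itself here. Named with values were all called members of each TCDD comparison, the 10 largest increases and decreases between 2 and 120 h called under both labels, the 5 highest levels, Cyp1a1 and Pkm, and of other lists a few of the largest. Further members were named for their role and chosen after their values were seen. Genes with close copies, such as Slc25a5 and its pseudogenes, and exons overlapped in antisense are uncertain. The test was checked on simulated counts. Alternatives were DESeq2 (1.42.0), RLE and total-count scaling, no filter, a covariate for pairs on no gene, 1 fit per label, a surrogate variable (sva 3.50.0) and leaving out libraries (144 single-library fits). Total-count scaling and the fits without the 2 libraries that stand apart, or without 6 of the WT label, were added after seeing the data.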

Additional observations from a re-analysis of the deposited data

Results flagged for a closer look

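Among 216 groups of 4 values (the summed share of the family, and members named above, by group) 16 held a library whose gap to its nearest neighbour was, as a share of the group's whole range, above Dixon's 95% critical value for 4 values. Chance flags about 1 in 20 groups, here 10.8.

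For the summed share of the family the ratios were 0.947 (WT vehicle 2 h), 0.916 (WT vehicle 120 h) and 0.848 (Pkm ΔDRE vehicle 96 h). Slc25a47 accounted for 6 of the 16. In Pkm ΔDRE vehicle at 96 h replicate 4 had 794 CPM and the others 2.74 to 5.11 (ratio 0.997). At 24 h of the same label and treatment replicate 1 had 52.4 CPM and the others 7.42 to 11.7 (0.905), and at 48 h replicate 1 had 15 CPM and the others 1.85 to 3.13 (0.903). In WT vehicle at 120 h replicate 2 had 15.1 CPM and the others 1.78 to 3.54 (0.868), in WT TCDD at 4 h replicate 4 had 289 CPM and the others 548 to 596 (0.844), and in Pkm ΔDRE TCDD at 72 h replicate 3 had 5.68 CPM and the others 2.08 to 2.67 (0.836). Replicate 4 of WT TCDD at 4 h is also 1 of the libraries in which Cyp1a1 lay toward the other treatment.

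At 2 h in WT vehicle, Slc25a14 was at 2.31 CPM in replicate 4 and at 0 to 0.276 in the others (0.880), Slc25a25 at 734 CPM in replicate 3 and at 426 to 464 in the others (0.877), Slc25a23 at 333 CPM in replicate 2 and at 283 to 290 in the others (0.859), and Slc25a45 at 13.5 CPM in replicate 4 and at 25 to 27.3 in the others (0.833). At 24 h in WT vehicle, Slc25a22 was at 114.6 CPM in replicate 4 and at 91 to 93.5 in the others (0.895), and Slc25a29 at 0.0928 CPM in replicate 2 and at 0.473 to 0.544 in the others (0.842). At 8 h in WT TCDD, Slc25a40 was at 9.35 CPM in replicate 3 and at 3.63 to 4.12 in the others (0.915).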

How the results depend on the processing

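Under alternatives other than leaving out a library, 215 counts of called members stayed within 1.5 times the count reported and 25 did not. At 8 h under WT 19 members passed without the fold change threshold and 0 in 1 fit per label with a surrogate variable, where Slc25a18 had -0.0003419 on the log2 scale. At 24 h under WT 0 were called with a covariate for pairs on no gene. At 96 h under WT 1 was called with the covariate, 0 in 1 fit per label with or without the surrogate variable, and 11 without the fold change threshold. At 120 h under WT, where none was called, DESeq2 called 2, and the covariate, 1 fit per label and the surrogate variable called 1 each. Under Pkm ΔDRE DESeq2 called 2 and the fit with no filter 1 at 2 h, 1 fit per label called 2 at 4 h and 1 at 96 h, and with the surrogate variable 2 and 3, where the 2 libraries that stand apart lie in the vehicle groups. The average over times gave 7 with the covariate under WT, where 2876 of 16838 genes passed. Under Pkm ΔDRE it gave 0 with no filter (448 of 35167 genes) and 6 with the covariate (2402 of 16911 genes). In 1 fit of all libraries the difference in response was called for 2 members at 4 h (Slc25a4 and Slc25a24) and 1 at 96 h (Slc25a47). There 1.38% and 0.923% of all genes were called. The 2 libraries that stand apart lie in the vehicle groups of these times, and that fit was not run without them. In the fits by time no member was called with or without them. The labels differed with vehicle for 2 members by DESeq2, and for 1 without those 2 libraries or with total counts. The cause of these shifts was not tested. With single libraries, or the same replicate of every group, left out, the counts ran from 8 to 16 (WT 8 h), 0 to 1 (WT 24 h), 0 to 4 (WT 96 h), 0 to 1 (WT 120 h, 1 without replicate 3 of the TCDD group), 0 to 5 (Pkm ΔDRE 72 h, 5 without replicate 1 of the vehicle group), 9 to 11 (average, WT), 0 to 2 (average, Pkm ΔDRE, 2 without replicate 2 and 0 without replicate 3), 6 to 18 (Pkm ΔDRE, 24 to 120 h) and 0 to 1 (labels with vehicle, 1 without replicate 4). Counts over time under Pkm ΔDRE ran from 16 to 25 between 2 and 24 h and from 23 to 33 between 2 and 120 h. In those fits 288 log2 fold changes of named members kept direction and call and 64 lost the call, and under the other alternatives 386 kept both, 52 lost the call and 1 changed sign. No paired analysis was possible because the labels give no replicate numbers, and the numbers used here follow the order of the samples. Members under about 1 CPM rest on few counts, and intervals cover the spread between libraries only.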

Other observations

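The balance of further close relatives also moved with time in vehicle cultures. Slc25a37 (mitoferrin 1) held 56% ± 6.7 (SD, n = 4) of the summed level per kilobase of both mitoferrins at 2 h under WT, 65.9% ± 9.7 at 24 h and 77% ± 4.1 at 120 h, and 49.4% ± 7.2, 53.7% ± 18.5 and 65.2% ± 10.1 under Pkm ΔDRE. Slc25a22 held 98.8% ± 1.1 of the summed level of the glutamate carriers Slc25a18 and Slc25a22 at 2 h under WT and 88.6% ± 3.4 at 120 h, and 99% ± 1.1 and 81.4% ± 6.9 under Pkm ΔDRE. These shares were not tested.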
